A study of Mus musculus with 8 samples.

Results

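Interferon-stimulated genes are the genes that a cell turns on after interferon binds its receptors, and 28 of 36 listed genes of this kind could be read in CD4+CD25+ lymphocytes from pregnant mice. The genes were listed by name: immunity-related GTPases, sensors and signalling proteins, antiviral effectors, antigen processing genes, the Phf11 genes of chromosome 14, and the Sp100 and Ifi200 clusters of chromosome 1. A gene was counted as measured when a probe set of the array was annotated to it alone, and the probe set with the highest mean was taken where there were several. Ifi47, Tgtp1, Tgtp2, Ifi27l2a, Parp10, Sp140, Ifi203 and Mnda were covered only by probe sets of several genes and were not analysed here. Pyhin1 was read under its current symbol Ifi209. The 28 genes were part of 6986 genes in the table.

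The study used Affymetrix Mouse Gene 2.0 ST arrays on cells purified by flow cytometry from the para-aortic lymph nodes of pregnant females at day 9.5 post coitus; these nodes receive lymph from the uterus. There were 4 arrays of Il10-/- mice, whose mutation had been crossed back to C57BL/6 within the same colony, and 4 arrays of C57BL/6 Il10+/+ mice. Each array held RNA pooled from 2 to 4 mice. Oxytetracycline, an antibiotic given to keep colitis away, was in the drinking water of the Il10-/- mice at 2 mg/ml. None is described for the Il10+/+ mice, so genotype and antibiotic cannot be told apart. The labels also name Balb/c males without saying which pregnancies they sired.

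Type I interferons signal through the transcription factor complex ISGF3, of which STAT2 and IRF9 are subunits. ISGF3 binds the interferon-stimulated response element (ISRE) in promoters. Interferon gamma is made by activated T cells and NK cells, and its signal reaches promoters at a shorter palindrome called GAS. The induced genes restrict viruses and intracellular bacteria, sense foreign nucleic acid, and raise antigen presentation. T cells respond to both kinds of interferon.

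The array medians lay between 6.97 and 7.12 on the log2 scale. Il10-/- replicate 2 and Il10+/+ replicate 4 stood apart, with interquartile ranges of 2.15 and 2.17 against 2.32 to 2.58 in the others. Il10 itself read 8.65 to 9.42 in the arrays labelled Il10-/- and 7.50 to 8.51 in those labelled Il10+/+. Which part of the gene was disrupted is unstated in these sources, and this probe set therefore checks no label. Of 10 regulatory T cell markers 3 were measured, Ctla4, Ikzf2 and Itgae, and their mean level was 10.53 to 10.91 in Il10-/- and 10.73 to 10.93 in Il10+/+. Foxp3, Il2ra, Cd4 and Cd3e were not analysed here.

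The group means of most interferon-stimulated genes lay close together. Of the 28, 14 were higher and 14 lower in Il10-/-, with a median log2 difference of -0.003. Over all 6986 genes, 50.8% were higher and the median was 0.0025. None of the 28 passed limma's test with Benjamini-Hochberg adjustment over all genes, where the smallest adjusted p of a member was 0.999 and 0.0286% of all genes (2, both higher) passed. None had an unadjusted p under 0.05 by the same test, against 4.78% of all genes. In all 28 the 4 and 4 arrays overlapped, whereas 2.92% of all genes had no overlap. In pooled sorted cells, fewer cells of a type and less RNA per cell cannot be told apart.

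The 95% interval of the difference, which is not adjusted for the number of genes, lay within a 2-fold change in either direction for 26 of 28 members (92.9%), against 97.9% of all genes. It lay within a 1.5-fold change for 21 members (75%), against 85.8% of all genes. The intervals of Apol9b and Ifi204 reached past 2-fold. The median absolute difference was 0.08 among the members and 0.09 among all genes.

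**Figure D1:**
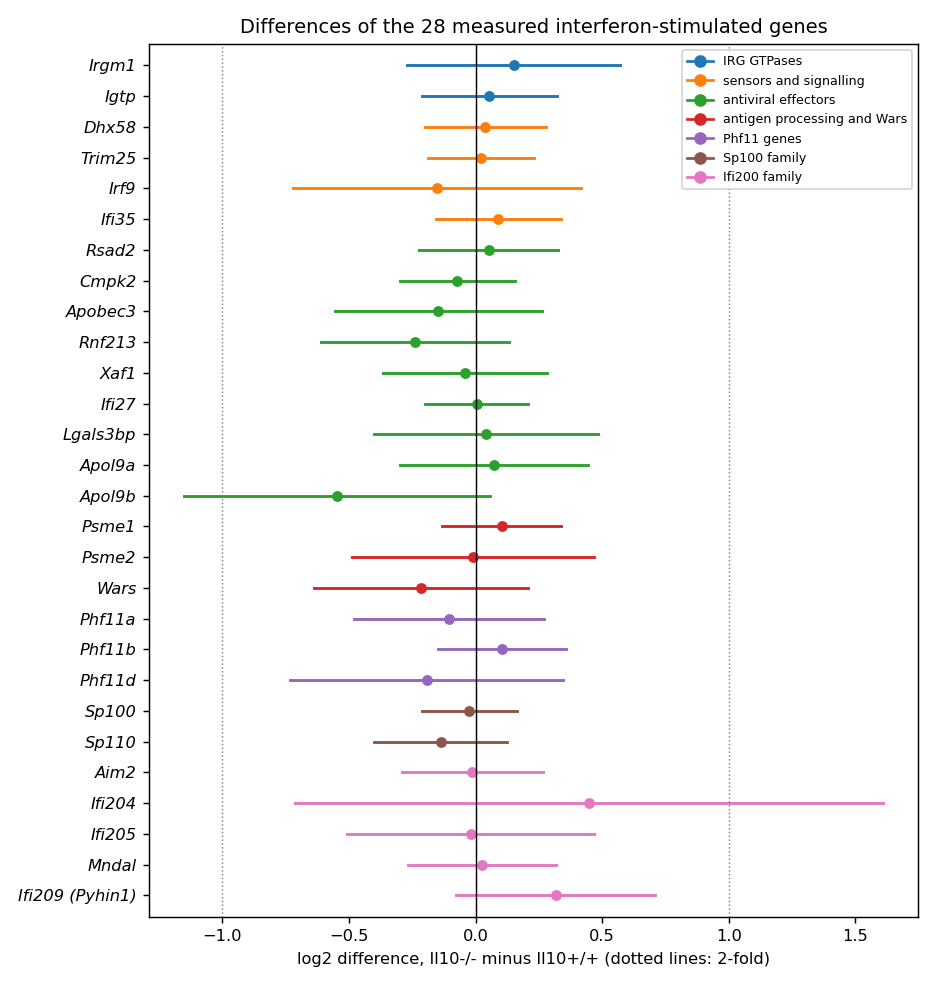
Log2 difference between the Il10-/- and Il10+/+ means for each of the 28 measured genes (points) with its 95% interval from limma (lines), coloured by gene group; dotted lines mark a 2-fold change. Points scatter on both sides of 0, every interval spans 0, and only the intervals of Apol9b and Ifi204 cross a dotted line.

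Irgm1 and Igtp encode immunity-related GTPases, a family that takes part in defence against intracellular pathogens and in autophagy. Both have an ISRE just upstream of the transcription start, and Igtp has a GAS beside it. The stretches are shown because the GTPase genes carry these elements close to the start site. They come from RefSeq, build GRCm38.p6, and run 5′ to 3′ on the strand of the gene, with motif matches in capitals. Irgm1 is from chr11:48871421-48871470 on the minus strand and Igtp from chr11:58199502-58199551 on the plus strand.
Irgm1: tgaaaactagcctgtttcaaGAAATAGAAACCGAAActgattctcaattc
Igtp: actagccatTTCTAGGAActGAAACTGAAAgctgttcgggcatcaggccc
The Irgm1 stretch holds 2 overlapping ISRE matches and ends directly before the annotated start site. In Igtp the first run of capitals is the GAS and the second the ISRE.

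Irgm1 read 9.81, 9.16, 9.31 and 9.38 in Il10-/- replicates 1 to 4 and 9.27, 9.61, 9.42 and 8.76 in Il10+/+ replicates 1 to 4. The Il10-/- mean was 9.42 ± 0.28 and the Il10+/+ mean 9.27 ± 0.36 (SD, n = 4 each), which gave a difference of 0.15 on the log2 scale (SE 0.19). Igtp read 11.63, 11.19, 11.40 and 11.58 in Il10-/- and 11.46, 11.37, 11.50 and 11.25 in Il10+/+. For both genes the lowest Il10-/- array was replicate 2 and the lowest Il10+/+ array was replicate 4, and the groups overlapped. The log2 difference of Igtp was 0.06 (SE 0.12).

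The ISRE was searched as GAAANNGAAA and the GAS as TTCNNNGAA, on both strands, in windows from 250 bases before to 50 after each annotated start. Matches of the 2 motifs may overlap. Windows were found for 24 of the 28 members, and Dhx58, Ifi204, Ifi27 and Wars had none in the table. An ISRE match occurred in 11 of the 24 members (45.8%) and in 3.99% of the 27025 genes with a window. A GAS match occurred in 2 of the 24, Igtp and Ifi35 (8.33%), and in 9.55% of all genes. Of single windows over the whole table, 3.44% held the ISRE and 8.3% the GAS. A match describes these letters and is no shown binding site.

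The sensing and signalling genes measured were Dhx58, which encodes the RNA helicase LGP2, Trim25, a ubiquitin ligase of the RIG-I pathway, Irf9, the DNA-binding subunit of ISGF3, and Ifi35, a partner of the interferon-inducible protein Nmi. Differences ran from -0.15 to 0.09 with a median of 0.03, and 3 of 4 were positive. Irf9 read 9.32, 8.20, 9.42 and 9.29 in Il10-/- and 9.33, 9.31, 9.44 and 8.76 in Il10+/+. The other 6 arrays lay between 9.29 and 9.44, and replicate 2 of Il10-/- and replicate 4 of Il10+/+ lay below them. The Irf9 difference was -0.15 (SE 0.26) over all arrays, 0.13 without Il10-/- replicate 2, and -0.02 (SE 0.10) without both.

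Ifi35 was steady in Il10-/-, at 9.65, 9.71, 9.63 and 9.74. In Il10+/+ it read 9.67, 9.37, 9.81 and 9.53. The Il10-/- values fell inside the Il10+/+ range, with a difference of 0.09 (SE 0.11), and of 0.07 by its dimmer probe set. Without Il10+/+ replicate 2 the Ifi35 difference was 0.02, and without Il10+/+ replicate 3 it was 0.16. Trim25 differed by 0.02 (SE 0.09) and Dhx58 by 0.04 (SE 0.11).

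Among 9 measured antiviral effectors, 4 were positive and 5 negative, with a median difference of -0.04. Ifi27, which encodes a small membrane protein of the ISG12 family, was nearly flat across arrays. It read 11.12, 10.93, 10.96 and 10.91 in Il10-/- and 10.96, 10.98, 11.01 and 10.96 in Il10+/+, a difference of 0.004 (SE 0.09). Rnf213, a giant ubiquitin ligase that marks intracellular bacteria, read 9.70, 9.38, 9.34 and 9.66 in Il10-/- and 9.76, 9.95, 10.05 and 9.28 in Il10+/+. Its difference of -0.24 (SE 0.17) did not pass the test (limma, adjusted p = 0.999), and with 1 array left out it ran from -0.40 without Il10+/+ replicate 4 to -0.14 without Il10+/+ replicate 3.

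Apol9b, an apolipoprotein L gene, had the largest negative difference of the 28. It read 7.61, 7.36, 7.24 and 7.60 in Il10-/- and 8.65, 7.39, 7.45 and 8.51 in Il10+/+. Replicates 1 and 4 of Il10+/+ were higher than every other array, and replicates 2 and 3 lay within the Il10-/- range. The Il10-/- mean was 7.45 ± 0.18 and the Il10+/+ mean 7.999 ± 0.67 (SD, n = 4 each), a difference of -0.55 (SE 0.27), or 1.46-fold lower in Il10-/-, with a 95% interval of -1.15 to 0.06 (limma, adjusted p = 0.999). Leaving out Il10+/+ replicate 1 took it to -0.33 and leaving out Il10+/+ replicate 4 to -0.38.

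Its close paralog Apol9a did not share this profile. Apol9a read 8.34, 8.71, 8.50 and 8.61 in Il10-/- and 7.95, 8.60, 8.75 and 8.56 in Il10+/+, a difference of 0.07 (SE 0.17). Across the 8 arrays, after subtracting each group's mean, r between the paralogs was -0.68, where all points share the same 8 libraries. Their promoter stretches are shown because they are the same letters upstream of probe sets that differed: Apol9a is from chr15:77411104-77411159 on the minus strand and Apol9b from chr15:77729015-77729070 on the plus strand, GRCm38.p6, with 2 overlapping ISRE matches on the opposite strand in capitals.
Apol9a: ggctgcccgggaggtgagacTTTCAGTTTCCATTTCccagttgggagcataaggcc
Apol9b: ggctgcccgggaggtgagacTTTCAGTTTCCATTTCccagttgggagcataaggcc
All 56 bases are equal. The 2 genes are near-copies, so how much of each signal comes from the other is uncertain.

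The remaining effectors lay closer to 0. Rsad2, which encodes the antiviral enzyme viperin, differed by 0.05 (SE 0.12). Its chromosome 12 neighbour Cmpk2, a mitochondrial nucleotide kinase, differed by -0.07 (SE 0.10). After subtracting group means, r between these neighbours was -0.08 over the 8 arrays. Xaf1, a partner of the apoptosis inhibitor XIAP, differed by -0.04, and Lgals3bp, a secreted galectin-binding protein, by 0.04.

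Apobec3, a cytidine deaminase that restricts retroviruses, differed by -0.15 (SE 0.19). It read 10.61, 9.93, 10.73 and 10.55 in Il10-/- and 10.51, 10.97, 10.55 and 10.38 in Il10+/+. The single low array of Il10-/- was replicate 2, and the difference was 0.03 without it and -0.05 without both arrays that stood apart. In Rsad2 the ISRE lies 110 to 120 bases before the start and in Apobec3 130 to 140 bases, farther than in the GTPase genes (14 to 30 in Irgm1 and 24 to 34 in Igtp). Rsad2 is from chr12:26456543-26456592 on the minus strand and Apobec3 from chr15:79892248-79892297 on the plus strand, GRCm38.p6, shown for comparison with the GTPase promoters.
Rsad2: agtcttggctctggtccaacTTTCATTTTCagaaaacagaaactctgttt
Apobec3: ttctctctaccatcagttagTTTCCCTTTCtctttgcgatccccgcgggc
Both matches are on the strand opposite to the gene.

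Interferon gamma raises the proteasome activator PA28, made of the subunits encoded by Psme1 and Psme2, and the tryptophanyl-tRNA synthetase Wars. Psme1 read 11.04, 11.003, 11.08 and 10.98 in Il10-/- and 10.998, 10.73, 10.85 and 11.11 in Il10+/+, a difference of 0.10 (SE 0.11). Psme2 differed by -0.01 (SE 0.22), with a spread of 0.14 in Il10-/- and 0.51 in Il10+/+ (SD, n = 4 each). The subunits followed each other within groups, with r = 0.89 over the 8 arrays. Wars read 8.88, 8.40, 8.99 and 9.003 in Il10-/- and 9.47, 9.15, 8.90 and 8.62 in Il10+/+. Its difference was -0.22 (SE 0.19), and the Il10-/- arrays lay within the Il10+/+ range except for replicate 2 below it. The Wars difference was -0.07 without Il10+/+ replicate 1, -0.08 without Il10-/- replicate 2 and -0.36 without Il10+/+ replicate 4.

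The Phf11 genes encode PHD finger proteins and lie side by side on chromosome 14. Phf11b read 11.68, 11.56, 11.28 and 11.61 in Il10-/- and 11.37, 11.45, 11.58 and 11.32 in Il10+/+, a difference of 0.11 (SE 0.11). Phf11d read 5.05, 5.50, 5.62 and 5.58 in Il10-/- and 6.37, 5.63, 5.44 and 5.07 in Il10+/+, a difference of -0.19 (SE 0.24). The Phf11d value of Il10+/+ replicate 1 was the highest of the 8. Leaving it out took the difference to 0.06.

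Phf11a differed by -0.10 (SE 0.17), and by 0.08 without Il10-/- replicate 3, where it read 8.10 against 8.75 to 8.95 in the other Il10-/- arrays. Phf11b was also lowest in that array, and r between Phf11a and Phf11b within groups was 0.75. Their promoters are shown because they hold the same ISRE letters: Phf11a is from chr14:59297523-59297571 and Phf11b from chr14:59341351-59341400, both on the minus strand, GRCm38.p6.
Phf11a: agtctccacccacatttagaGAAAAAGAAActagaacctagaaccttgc
Phf11b: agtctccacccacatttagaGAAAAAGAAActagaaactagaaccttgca
Over the 49 bases compared, 48 are equal and the difference is C37A, counted from the 5′ end of the Phf11a stretch. These paralogs are alike in sequence, so how far their probe sets share signal is uncertain.

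**Figure D2:**
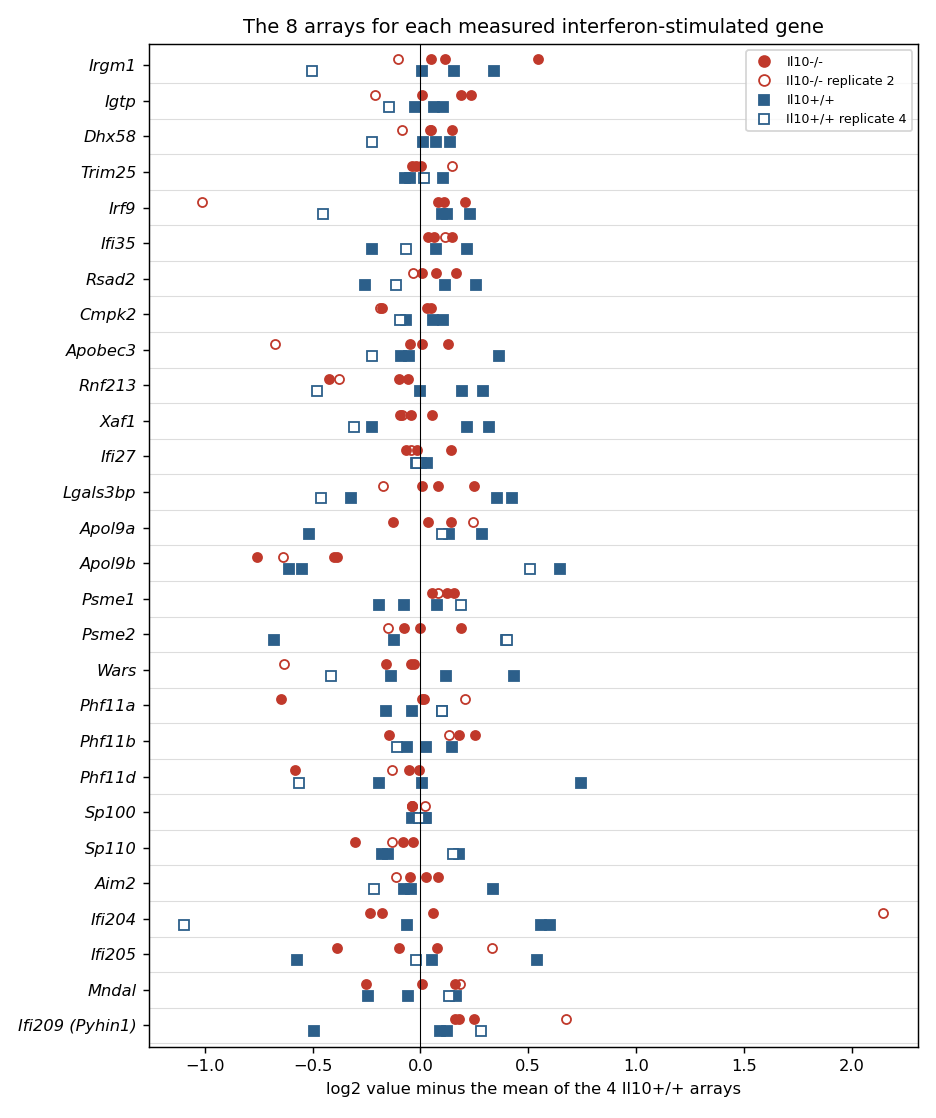
Log2 value of each of the 8 arrays minus the mean of the 4 Il10+/+ arrays, for each measured gene; red circles are Il10-/- and blue squares Il10+/+, with Il10-/- replicate 2 and Il10+/+ replicate 4 drawn open. In all 28 genes red and blue overlap, Ifi204 has a lone open red circle far to the right, and Irf9 has open symbols of both colours on the left.

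The Sp100 family encodes nuclear body proteins with chromatin-reading domains. Sp100, whose difference had the smallest SE of the 28, read 11.52, 11.58, 11.52 and 11.52 in Il10-/- and 11.58, 11.52, 11.59 and 11.56 in Il10+/+. Its difference was -0.02 (SE 0.09, 95% interval -0.21 to 0.17), and -0.06 by a dimmer probe set. That dimmer probe set spread widely, from 4.83 to 7.24 in Il10-/- and from 5.185 to 7.09 in Il10+/+. With the mean of the Sp100 probe sets the difference was -0.04 (SE 0.26). Sp110 read 7.49, 7.39, 7.21 and 7.44 in Il10-/- and 7.34, 7.70, 7.37 and 7.67 in Il10+/+, a difference of -0.14 (SE 0.12). Sp110 and Sp100 are neighbours among the tested genes of chromosome 1, with no tested gene between them. Il10 lies between these and the Ifi200 cluster on the same chromosome, and the only genes of the table past the threshold, Ctse and Efcab2, are on chromosome 1 too.

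The Ifi200 genes encode PYHIN proteins, which carry a pyrin domain, a DNA-binding HIN domain or both. Aim2 assembles an inflammasome on cytosolic DNA. Of 5 measured members of the family, 3 were positive and the median difference was 0.03. Ifi209 (Pyhin1) read 11.65, 12.17, 11.74 and 11.67 in Il10-/- and 11.62, 10.996, 11.58 and 11.77 in Il10+/+. The Il10-/- mean was 11.81 ± 0.24 and the Il10+/+ mean 11.49 ± 0.34 (SD, n = 4 each), a difference of 0.32 (SE 0.18; limma, adjusted p = 0.999), and 3 of the 4 Il10+/+ arrays lay below all Il10-/- arrays. Without Il10+/+ replicate 2 the difference was 0.15, and without Il10-/- replicate 2 it was 0.20.

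Ifi204, a PYHIN gene typical of macrophages, read 3.91, 6.23, 4.14 and 3.85 in Il10-/- and 4.65, 4.69, 4.02 and 2.99 in Il10+/+. Il10-/- replicate 2 stood above all other arrays. The difference was 0.45 (SE 0.53) over all arrays, -0.12 without that array, 0.08 without Il10+/+ replicate 4 and -0.48 without both. The mean level of macrophage and monocyte markers was also highest in Il10-/- replicate 2. Of 15 such markers 5 were measured, Lyz1, Lyz2, Fcgr3, Cd68 and Marco, and it was 7.58 in that array, 6.96 to 7.05 in the other Il10-/- arrays and 7.16 to 7.21 in Il10+/+. Lyz2 read 8.20 in that array and 6.70, 7.21 and 7.19 in Il10-/- replicates 1, 3 and 4. Lyz1 read 6.745 in that array, below Il10+/+ replicates 1 (7.36) and 4 (6.81). The mean of the 7 measured B cell markers was highest in Il10-/- replicate 2 too, at 7.91. It was 7.70 to 7.84 in the other Il10-/- arrays and 7.52 to 7.75 in Il10+/+. The markers did not move together in Il10-/- replicate 2. Ebf1 (6.92) and Cr2 (7.08) were highest of the 8 arrays there, while Cd79b, Vpreb3, Blk and Fcrla were not. Ighm, the brightest of the 7, was lowest of the 8 arrays there, at 11.47. The part of macrophages, or of the narrow interquartile range of this array, in the Ifi204 signal was not tested.

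Aim2 differed by -0.01 (SE 0.13), Mndal by 0.03 (SE 0.13) and Ifi205 by -0.02 (SE 0.22). Mndal read 10.88 to 11.31 in Il10-/- and 10.89 to 11.29 in Il10+/+. Ifi205 read 5.41 to 6.13 in Il10-/- and 5.22 to 6.33 in Il10+/+. These ranges nearly coincide. Promoter stretches of Mndal (chr1:173880194-173880243) and Ifi205 (chr1:174031860-174031909), both on the minus strand of GRCm38.p6, are shown because both carry an ISRE match followed by similar letters.
Mndal: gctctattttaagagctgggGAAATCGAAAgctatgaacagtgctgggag
Ifi205: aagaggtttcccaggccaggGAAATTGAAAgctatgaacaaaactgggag
Of the 50 bases, 33 are equal, and the difference C26T lies inside the match, at a position that the search left free. A second Mndal match, on the opposite strand 44 to 54 bases before an annotated start, is not shown.

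From the list of other interferon genes, 4 further Ifi200 genes of the same cluster were measured, and 3 of them had positive differences of more than 0.2. With Ifi209 they lie between Aim2 and Ifi204, in the order Ifi214, Ifi213, Ifi209, Ifi208 and Ifi207. Ifi208 read 10.12, 10.16, 10.34 and 10.07 in Il10-/- and 10.39, 8.25, 9.89 and 8.66 in Il10+/+. Replicates 2 and 4 of Il10+/+ were far lower than the rest, and replicate 1 of Il10+/+ was the highest of all 8. The difference of Ifi208 was 0.88 (SE 0.39), or 1.84-fold, with an unadjusted p of 0.0463 and an adjusted p of 0.999 by limma. It was 0.53 without Il10+/+ replicate 2, 0.66 without replicate 4 and 1.24 without replicate 1.

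Ifi213 differed by 0.39 (SE 0.23; 0.17 without Il10+/+ replicate 4), Ifi214 by 0.27 (SE 0.22; 0.08 without Il10+/+ replicate 2) and Ifi207 by -0.02 (SE 0.13). Over the 9 measured Ifi200 genes together, 6 (66.7%) were positive, against 50.8% of all genes. By limma 0 passed the adjusted test and 1 had an unadjusted p under 0.05, and all 9 had groups that overlapped. Their median of 0.27 rested on single arrays. It was 0.02 without Il10-/- replicate 2, 0.08 without Il10+/+ replicate 2, 0.08 without Il10+/+ replicate 4, and 0.02 without both arrays that stood apart. Il10+/+ replicate 2 held the lowest Il10+/+ value for 3 of the 9 genes, replicate 1 for 3 and replicate 4 for 3. Replicate 2 was lowest for Ifi208 (8.25), Ifi209 (10.996) and Ifi214 (8.39), which had positive differences, and replicate 4 for Aim2, Ifi213 and Ifi204. Replicate 1 was lowest for Mndal, Ifi205 and Ifi207, whose differences lay between -0.02 and 0.03. These paralogs are alike in sequence, and how far their probe sets share signal is uncertain.

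**Figure D3:**
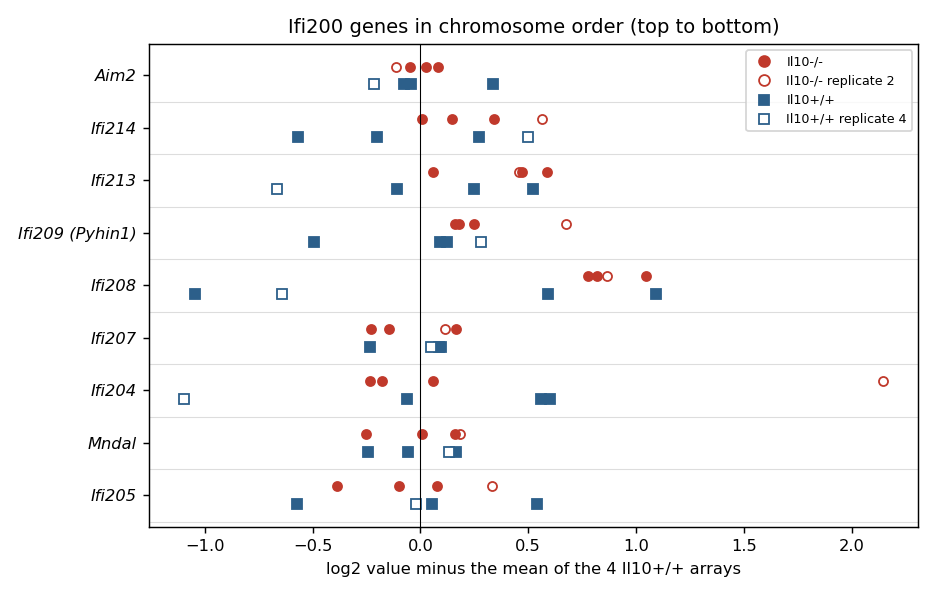
Log2 value of each array minus the Il10+/+ mean for 9 Ifi200 genes in their order on chromosome 1 (top to bottom); red circles are Il10-/- and blue squares Il10+/+, open symbols as labelled. For Ifi208 the 4 red circles are close together while the blue squares spread from 8.25 to 10.39 in log2 value, and red and blue overlap in all 9 genes.

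Besides the members, 26 of 138 further listed genes of the interferon system were measured. Of these, 12 were positive and 14 negative, with a median of -0.05, and 0 passed the adjusted test by limma, with 2 (7.69%) at an unadjusted p under 0.05, against 4.78% of all genes. The ligand gene Ifng was the only gene of the 26 (3.85%) whose groups did not overlap, a share near the 2.92% of all genes. It read 8.08, 7.84, 7.64 and 7.78 in Il10-/- and 7.37, 7.35, 7.30 and 7.33 in Il10+/+, a difference of 0.50 (SE 0.11; limma, adjusted p = 0.406).

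The genes that relay the signal did not differ past the threshold. The receptor gene Ifngr1 differed by -0.08 (SE 0.12), the ISGF3 subunit gene Stat2 by -0.28 (SE 0.28) and the transcription factor gene Irf1 by -0.07 (SE 0.16). The Stat2 difference was -0.08 without Il10-/- replicate 2 and -0.55 without Il10+/+ replicate 4. Among other induced genes, Irgm2, an immunity-related GTPase, differed by -0.07 (SE 0.28), and Epsti1 by 0.15 (SE 0.12). Slfn8, a Schlafen gene, had the most negative difference of the 26, at -0.40 (SE 0.20; limma, adjusted p = 0.999). Irf7 and Ifnar1 were not analysed here.

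Several interferon-stimulated genes were low in the same pair of arrays, 1 of each genotype. In 9 of 28 members (32.1%), Il10-/- replicate 2 was the lowest Il10-/- array and Il10+/+ replicate 4 the lowest Il10+/+ array, against 12.9% of all genes. The 9 were Irgm1, Igtp, Dhx58, Irf9, Cmpk2, Apobec3, Lgals3bp, Wars and Aim2. Only Ifi209 was highest of its group in both (3.57% of members, 20.1% of all genes). Among the 26 other interferon genes, 10 (38.5%) were lowest in both, Stat2 among them. This count was chosen after the values were seen and carries no test. Both lists were brighter on average than the table. Average log2 levels, Il10-/- first, were 9.06 and 9.07 for members, 9.24 and 9.21 for the 26 others, 7.29 and 7.27 for all genes. The share of all genes is thus not matched for brightness. How often equally bright genes were lowest in both arrays of narrow interquartile range was not tested. Over all genes, the deviations of these 2 arrays from their group means correlated at 0.46, the highest of the 16 pairs of an Il10-/- with an Il10+/+ array.

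The size of the drop varied widely. Relative to the mean of the other arrays of its group, Irf9 fell by 1.14 in Il10-/- replicate 2 and by 0.60 in Il10+/+ replicate 4, the largest drop in the former among the 9 members. Wars fell by 0.55 in both, Igtp fell by 0.35 and 0.19, and Cmpk2 fell by 0.16 and 0.13. Stat2, which is no member, read 8.77, 7.80, 8.45 and 8.57 in Il10-/- and 8.67, 9.08, 9.10 and 7.85 in Il10+/+. It fell by 0.79 and 1.10. After subtracting group means, r with Irf9 over the 8 arrays lay between 0.49 (Aim2) and 0.85 (Igtp) for the other 8 of the 9 members. These members were picked for being lowest in the same arrays as Irf9, which largely fixes a positive r.

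Taken over all pairs, the members were about as alike as other genes. Over their 378 pairs the median r within groups was 0.04 and 7.14% of pairs exceeded 0.7, against 0.03 and 6.98% over all pairs of tested genes. Over the pairs of the 26 other interferon genes the median was 0.21, and 18.5% exceeded 0.7. Of the 9 members low in both arrays, Irgm1, Igtp and Apobec3 had an ISRE match and Irf9, Cmpk2, Lgals3bp and Aim2 had none, while Dhx58 and Wars had no window.

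**Figure D4:**
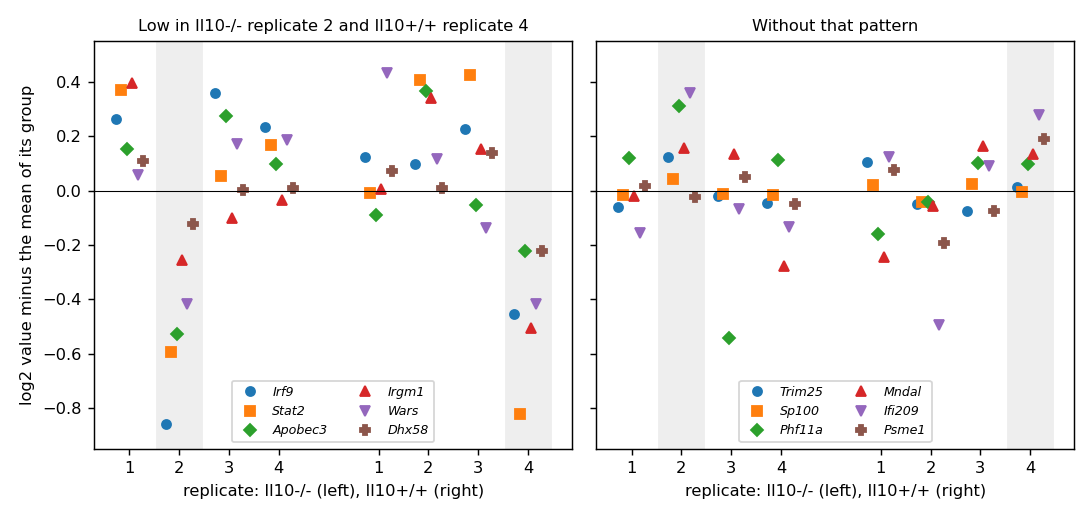
Log2 value minus the mean of its own group in each of the 8 arrays, for 6 genes lowest in both arrays that stood apart (left panel) and 6 members without that pattern (right panel); points are arrays, shaded columns are Il10-/- replicate 2 and Il10+/+ replicate 4. The left panel's genes were picked for being low in the shaded columns, so their place below 0 there is no finding; the picture shows how far they fell, from more than 0.8 for Irf9 to less than 0.2 for Dhx58 in the first shaded column.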

How the data were processed

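Expression was measured with 1 array per RNA pool, 4 pools in each group. The authors deposited log2 values per probe set. Per the design text of the series, scanner files were normalized in Partek with the RMA background step, a correction for GC content and the mean of the probes. The submitters' processing notes also list Affymetrix Expression Console. The base of the logarithm was read from the range of the values, and no version or genome build of the probe sets was given. No detection calls were used, and the number of arrays limits the precision.

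The table held 16378 probe sets, 7358 annotated to 1 gene, 456 to several and 8564 to none. Symbols were updated through Entrez identifiers (7310 matched) to RefSeq, assembly GRCm38.p6, leaving 6986 genes after the brightest probe set of each was kept. Differences, Il10-/- minus Il10+/+, came from limma 3.58.1 (lmFit, eBayes) in R 4.3.3, two-sided, with Benjamini-Hochberg adjustment over all 6986 genes at 0.05, and the script was tested on simulated data. Differences are on the log2 scale, and intervals are 95% intervals of the moderated fit. Correlations within groups used each value minus its group's mean.

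The members, lists and rules were chosen with earlier results of these data known. Members given array by array were, in each group of members, the one with the highest mean and those with the largest differences. Apol9a, Apobec3 and the Ifi200 genes outside the member list were named after their values were seen. Marker lists for T cells (2 of 12 measured), B cells (7 of 14), dendritic cells (1 of 12) and NK cells (2 of 7) had 0 genes past the threshold, with median differences of 0.06, 0.14, 0.28 and 0.18. Alternatives were a replicate block, quantile normalization, median centring, the mean of probe sets, a filter on dim genes, array weights, a trended and robust variance, and leaving out arrays. Replicate numbers mark no stated shared batch. The deviations of same-numbered arrays correlated at 0.05, -0.32, 0.03 and -0.19, so they were not taken as pairs; the highest of the 16 correlations, 0.46, was between Il10-/- replicate 2 and Il10+/+ replicate 4.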

Additional observations from a re-analysis of the deposited data

Results flagged for a closer look

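In 56 sets of 4 arrays (28 genes in 2 groups), 3 had a sample set far from the others by Dixon's criterion, where chance gives about 1 in 20. All 3 were Il10-/- replicate 2. Irf9 read 8.20 there, and 9.29 to 9.42 in the other Il10-/- arrays. Sp100 read 11.583, against 11.523 to 11.525. Ifi204 read 6.234, against 3.85 to 4.14.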

How the results depend on the processing

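No member passed the threshold under any of the alternatives run (445 member values, smallest adjusted p 0.614, Apol9b without Il10+/+ replicate 2). The median difference of the Sp100 family kept its sign with any array left out (-0.11 to -0.05). Those of the other groups did not: the GTPases ran from -0.0057 to 0.19, sensors from -0.0044 to 0.0813, effectors from -0.11 to 0.0164, antigen processing from -0.18 to 0.12, Phf11 from -0.21 to 0.0772, Ifi200 members from -0.0270 to 0.16 and the other interferon genes from -0.15 to 0.0701. Over all genes, the 2 calls (higher) became 1 with the replicate block, median centring, array weights and without both arrays that stood apart. They became 3 with the trended and robust variance, and ranged from 1 to 4 with an array left out. The replicate block changed no call among members. Of the 28 members, 10 kept their sign under every alternative run: Ifi35, Cmpk2, Rnf213, Apol9b, Psme1, Wars, Phf11b, Sp100, Sp110 and Ifi209. The sign of the other 18 changed under at least 1 alternative, so they have no settled direction, and the cause was not tested. A kept sign settles no direction for the 10 either, since their 95% intervals span 0 too. The replicate block and the trended and robust variance leave each difference as it was, so they could not change a sign. With quantile normalization Ifi27 went to -0.0461 and Mndal to -0.0084. With median centring Trim25 went to -0.0003 and Ifi27 to -0.0180. Without both arrays that stood apart Trim25 went to -0.0146, Lgals3bp to -0.0395, Psme2 to 0.17 and Ifi204 to -0.48. With array weights Psme2 went to 0.0568 and Mndal to -0.0389. With an array left out, the difference ran over these ranges: Irgm1 -0.0179 to 0.26, Igtp -0.0050 to 0.14, Dhx58 -0.0353 to 0.0854, Trim25 -0.0195 to 0.0565, Irf9 -0.30 to 0.13 and Rsad2 -0.0349 to 0.14. Further ranges were Apobec3 -0.24 to 0.0289, Xaf1 -0.14 to 0.0647, Ifi27 -0.0424 to 0.0271, Lgals3bp -0.11 to 0.18, Apol9a -0.0988 to 0.17 and Psme2 -0.24 to 0.12. Further ranges were Phf11a -0.21 to 0.0772, Phf11d -0.38 to 0.0556, Aim2 -0.0850 to 0.0996, Ifi204 -0.12 to 0.68, Ifi205 -0.21 to 0.16 and Mndal -0.0551 to 0.12. Ifi204, Ifi205 and Phf11d gave no value under the filter on dim genes. Signal over background limits these dim genes most, and 4 arrays a group limit all of them.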
